A study of Drosophila melanogaster with 2 samples.

Results

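The 40 genes described here are the Hox genes of Drosophila melanogaster together with other genes of the ANTP and NK classes of homeobox genes, taken by name from the 13945 protein-coding genes of the Ensembl annotation. They comprise 8 Hox genes, 3 homeobox genes that lie inside the Hox complexes without acting as Hox genes, 11 other ANTP-class genes and 18 NK-type and related genes. All 40 listed names were found once each. One of them is CG11085, the gene whose protein was tagged, so its binding was looked at on the DNA of its own relatives.

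Chromatin immunoprecipitation followed by sequencing (ChIP-seq) was made on whole embryos aged 0 to 24 h that carried a CG11085-eGFP fusion, with an antibody against GFP. Both libraries are biological replicates of this 1 genotype, and no untagged or otherwise different group was analysed here. The regulatory sequence that drives the fusion is not given in the sources used here, and the labels do not say how many embryos were pooled. Since each library mixed all cell types and a whole day of development, few cells with strong occupancy and many cells with weak occupancy cannot be told apart.

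Homeodomain proteins are transcription factors that bind short DNA sequences, most of which contain the core TAAT. The Hox genes stand in a pair of complexes on chromosome 3R, the Antennapedia complex and the Bithorax complex, and give the segments along the body axis their identities. NK-type genes pattern muscle, heart, gut and columns of the nerve cord, and several of them also lie side by side in a cluster on 3R. Homeobox genes often regulate each other, and the Hox complexes are the classical targets of Polycomb-group repressors and trithorax-group activators.

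A peak was counted at a gene in 3 ways. Its summit, the position of its maximum, lay within 1 kb of a transcription start site (TSS) of the gene, or in the gene body or 5 kb around it, or the gene owned the protein-coding TSS nearest to the summit. Signals are those the authors deposited, without a stated scale, and values called pooled come from both replicates together. Reproducibility is given as the −log10 of the global irreproducible discovery rate (IDR), a measure of how well a region's ranks match between the replicates. The authors' threshold of 0.01 corresponds to 2.0 on that scale. Read depth is unknown, so no counting interval can be given.

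The conservative list of the authors held 2610 peaks on the 6 chromosome arms and the larger list 3124. Called singly, replicate 1 had 2006 peaks and replicate 2 had 1750. The ranked comparison of the replicates held 142665 regions, whatever their IDR. At 2380 of the 2610 the signal was higher in replicate 1, and the median of replicate 1 over replicate 2 was 1.51. Along the arms, 648 stretches over 9 kb long held no summit in any of the files. They held a TSS of 2 of the 40 homeobox genes (5%), bap and scro, against 747 of all 13945 protein-coding genes (5.36%), so no value can be given at the start sites of bap and scro. Both genes are kept among the 40 in the counts below, as such genes are in the background, and the counts without them are given beside the first ones.

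Sequences around 6 summits are shown as examples of how widely the TAAT core varied among peaks at these genes. They include the 3 most reproducible windows outside UTRs that could be shown, at tin, NK7.1 and cad, and weaker ones at Abd-B, ro and exex. Each is the 101 bases centred on the summit of a conservative peak, read on the + strand of dm6 from the NCBI RefSeq copy of the assembly, with TAAT and its reverse complement ATTA in capitals. The first 4 windows are those of tin at chr3R:21378726-21378826, of NK7.1 at chr3R:14373301-14373401, of the Abd-B intron at chr3R:16958361-16958461 and of cad at chr2L:20787398-20787498. The last 2 windows are those of ro at chr3R:26881485-26881585 and of exex at chr3L:7948965-7949065.
tin: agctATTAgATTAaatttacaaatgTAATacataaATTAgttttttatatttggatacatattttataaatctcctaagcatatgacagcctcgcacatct
NK7.1: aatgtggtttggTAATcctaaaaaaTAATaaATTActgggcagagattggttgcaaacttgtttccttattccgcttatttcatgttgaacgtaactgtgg
Abd-B: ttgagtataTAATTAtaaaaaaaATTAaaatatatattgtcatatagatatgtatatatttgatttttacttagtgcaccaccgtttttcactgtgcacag
cad: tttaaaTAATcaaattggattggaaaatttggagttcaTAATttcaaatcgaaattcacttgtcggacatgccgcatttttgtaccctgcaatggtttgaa
ro: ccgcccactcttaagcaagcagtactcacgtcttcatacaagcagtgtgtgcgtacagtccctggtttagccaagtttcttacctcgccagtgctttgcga
exex: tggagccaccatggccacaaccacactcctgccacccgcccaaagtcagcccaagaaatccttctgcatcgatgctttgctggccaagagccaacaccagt
The tin window held 4 matches to the core and the NK7.1 window 3. The Abd-B window also held 3, of which a pair overlap in the palindrome TAATTA. The cad window held 2, and the ro and exex windows held 0. The number of matches did not follow the signal in these 6, since the Abd-B peak had the lowest signal of them.

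CG11085 peaks lay at the start sites of 6 of the 40 homeobox genes, namely Dll, NK7.1, tin, ro, exex and lbl. This is 15% of them, against 15.1% of all protein-coding genes. In the gene body or 5 kb around it, 12 of the 40 had a peak, against 35.4% of all protein-coding genes. By nearest TSS, 9 of the 40 owned a peak, against 14.7% of all protein-coding genes. Without the genes whose start sites lay in the empty stretches, a choice made after seeing the data, these counts were 6, 12 and 9 of 38 homeobox genes. They compare with 15.8%, 36.7% and 15.3% of 13198 protein-coding genes. By any of the 3 assignments the count was 14 of 40 (35%), against 36.2% of all protein-coding genes, and comprised 4 of the 8 Hox genes, 1 of the 3 other genes of the complexes, 5 of the 11 other ANTP-class genes and 4 of the 18 NK-type genes. No test was made on these counts, since both samples form 1 group.

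The counts depended on the list. At start sites the larger list gave 6 of 40 against a background of 17.3%, replicate 1 alone 5 against 13.3%, and replicate 2 alone 2 against 11.2%. In the gene body or 5 kb around it, the larger list gave 12 against 39.6%, replicate 1 gave 8 against 31%, and replicate 2 gave 5 against 26.9%. By nearest TSS, the larger list gave 10 against 17.2%, replicate 1 gave 7 against 12%, and replicate 2 gave 4 against 10.5%. Among conservative peaks at a global IDR of 0.001 or below, 3 of 40 had one at a start site against 8.53%, 4 in the gene body or 5 kb around it against 20.8%, and 3 by nearest TSS against 7.48%. A window of 10 kb around the gene body gave 19 of 40 (47.5%) against 48.5%. NK7.1 and tin were the start sites found in all 4 lists. The larger list added cad, whose start site lay just outside the conservative threshold, and lacked lbl.

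**Figure D1:**
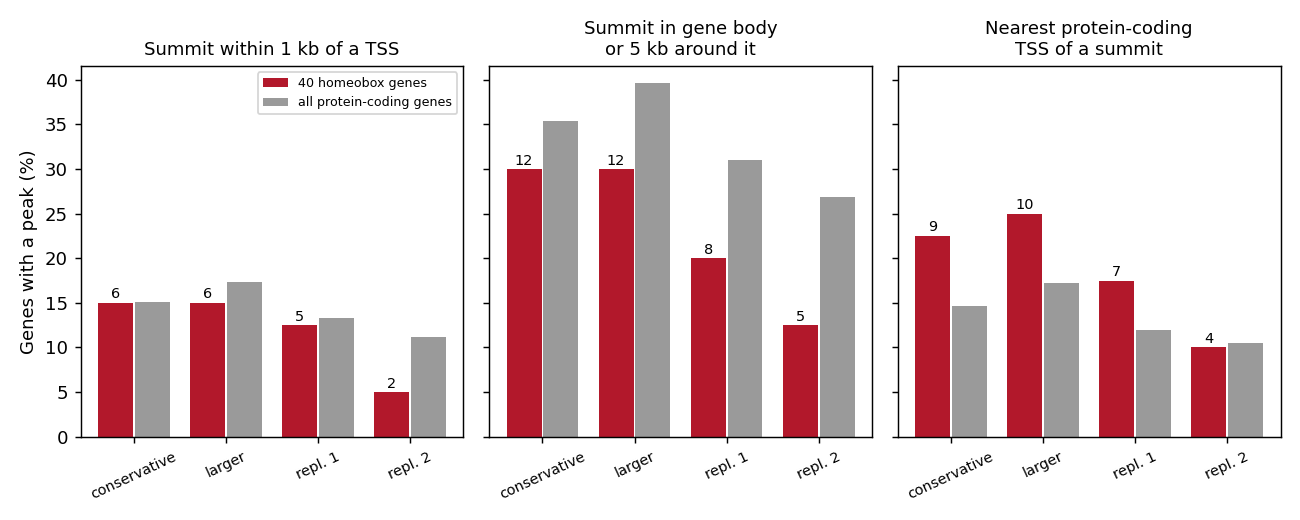
Share of genes with a peak (%, vertical axis) under each of the 3 assignments, in the conservative list, the larger list and the lists of replicate 1 and replicate 2. Red bars are the 40 homeobox genes with their counts printed above, and grey bars all 13945 protein-coding genes. At start sites the conservative bars stand at 15% and 15.1%, and in the gene body or 5 kb around it the red bars are below the grey ones in each of the 4 lists.

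The 27 conservative peaks assigned to the homeobox genes had lower signals than the list as a whole, as a description without a test. Their median signal was 96.8, with quartiles of 76.7 and 114.5, against 124 with quartiles of 91.8 and 185 over all 2610 peaks. At or above the median of all peaks lay 5 of the 27 (18.5%). A global IDR of 0.001 or below was reached by 4 of the 27 (14.8%), at cad, Dll, NK7.1 and tin, against 45.6% of all peaks. Both single-replicate lists overlapped 5 of the 27 by at least 1 bp (18.5%), against 50.5% of all peaks, and neither list overlapped 12 of the 27 (44.4%), against 22.5%. Of the 27, 3 entries (11.1%) shared a replicate region with a stronger peak, against 5.21% of all peaks. Such entries count in the values of this paragraph but were no separate measurements in the replicates. The 5 include 2 entries at ATPsynE, described below, that share their replicate regions. The median ratio of replicate 1 to replicate 2 signal was 1.497 at the 27 peaks and 1.505 at all peaks, and replicate 1 was the higher at 24 of the 27. For 11 of the 27 peaks the nearest protein-coding TSS belonged to a gene that is not one of the 40.

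**Figure D2:**
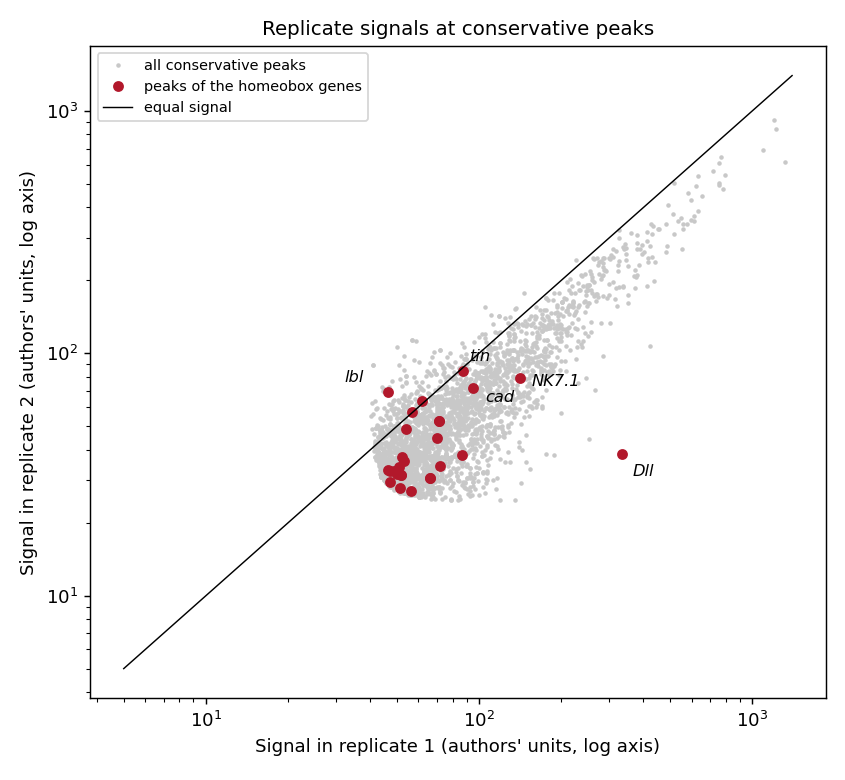
Signal of each conservative peak in replicate 1 (horizontal, log axis) and replicate 2 (vertical, log axis), in the authors' units. Red points are the 27 peaks of the homeobox genes, grey points all 2610 conservative peaks, and the line marks equal signal. Most red points lie low in the cloud and below the line, and the peak at Dll, with 333 in replicate 1 and 38.5 in replicate 2, stands farthest from it.

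None of the 8 Hox genes had a peak within 1 kb of a start site in any of the 4 lists. In these lists 11.2% to 17.3% of all protein-coding genes had one, so with 8 genes the absence is not read as a result. In the gene body or 5 kb around it, 4 of them had conservative peaks, Antp, Ubx, Abd-B and pb, against 35.4% of all protein-coding genes. The Hox genes are longer, with a median of 30563 bp against 2166 bp. The strongest ranked region within 1 kb of a Hox start site was that of Abd-B, with a pooled signal of 70.0, 46.8 in replicate 1 and 22.2 in replicate 2, at a −log10 IDR of 1.49. The median over the 8 Hox genes at start sites was 44.4, against 39.6 over all protein-coding genes. In the latter, the 14.1% of genes with no ranked region there counted as 0, while each Hox gene had a region.

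Antp, which gives the thoracic segments their identity, had 3 conservative peaks inside its long transcription unit. The strongest, at 3R 6914369-6914708, had a pooled signal of 113, with 70.2 in replicate 1 and 44.6 in replicate 2. It lay in an intron 18.3 kb downstream of the nearest start site and was in the list of replicate 1 but not in that of replicate 2. An intronic peak at 3R 6936081-6936420, 3.41 kb upstream of the same start site, had 86.5 pooled, 48.8 in replicate 1 and 32.6 in replicate 2. A peak in the 3' UTR at 3R 6908097-6908436 had 77.3 pooled, 53.1 in replicate 1 and 35.9 in replicate 2. All 3 were higher in replicate 1, and the last 2 were in neither single-replicate list.

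Abd-B, the Hox gene of the posterior abdomen, owned 2 peaks by nearest TSS. The peak at 3R 16919063-16919402 had a pooled signal of 108, with 72.2 in replicate 1 and 34.2 in replicate 2. It lay 15009 bp downstream of the nearest Abd-B start site and 7.98 kb outside the gene, in an intron of the long non-coding RNA lncRNA:iab8. The intronic peak at 3R 16958241-16958580, whose window with the TAATTA palindrome is printed above, had 70.3 pooled, 50.9 in replicate 1 and 34.1 in replicate 2. The strongest ranked region of Abd-B lay inside the gene, 1.45 kb upstream of one of its start sites. It had 83.5 pooled but only 13.2 in replicate 2 against 73.5 in replicate 1. Its −log10 IDR of 0.159 kept it out of the list.

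Ubx, the Hox gene of the third thoracic and first abdominal segments, had a single conservative peak, beyond its 3' end. At 3R 16656194-16656533 it had 75.1 pooled, 56.5 in replicate 1 and 26.9 in replicate 2, and it was one of the peaks just inside the threshold, with a −log10 IDR of 2.1. Its summit lay 259 bp outside Ubx and 702 bp upstream of modSP, a serine protease gene that acts upstream of the Toll receptor in immunity. At the Ubx start site the strongest ranked region had a pooled signal of 27.7.

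The peak near pb, the Hox gene of the adult mouthparts, lay between genes at 3R 6745949-6746288. It had 71.8 pooled, 51.8 in replicate 1 and 31.5 in replicate 2, and was 4.06 kb upstream of pb and 1.98 kb upstream of zen2, a paralog of zen. The nearest start site was that of CG34297. A second entry at 3R 6746168-6746507 had a pooled signal of only 4.45 and carried the same replicate regions and replicate signals, so it was no separate measurement in the replicates.

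The other 4 Hox genes had no conservative peak in the gene body or 5 kb around it. Among them lab, which acts in the anterior head and midgut, came closest. A region inside the gene, 1.94 kb upstream of an internal start site, had 77.3 pooled, 43.5 in replicate 1 and 29.9 in replicate 2. Its −log10 IDR of 1.96 lay just under the threshold. For abd-A, the gene of the abdominal segments, the strongest region had 66.9 pooled, 42.6 in replicate 1 and 18.2 in replicate 2. The larger list placed 2 peaks upstream of abd-A, 19.6 and 31.0 kb away with pooled signals of 76.8 and 71.5. Scr, of the labial and first thoracic segments, reached 64.0 pooled, with 50.8 in replicate 1 and 16.95 in replicate 2. Dfd, of the mandibular and maxillary segments, reached 49.8 pooled at 383 bp upstream of its start site, with 40.4 in replicate 1 and 22.3 in replicate 2. The 3' part of Dfd fell in one of the stretches without any summit, 9.84 kb long.

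Of the homeobox genes inside the Antennapedia complex that are not Hox genes, zen2 shared the peak with pb. The strongest regions of zen, which specifies the amnioserosa, and of the pair-rule gene ftz had 56.1 and 36.5 pooled and −log10 IDR values of 0.949 and 0.149, far from the threshold.

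Peak density in the Hox complexes was as follows. The Antennapedia complex, from lab to Antp, spans 338 kb at 3R 6661427-6999228 and held 6 conservative peaks, or 1.78 per 100 kb. The Bithorax complex, from Ubx to Abd-B, spans 316 kb at 3R 16656623-16972236 and held 3, or 0.951 per 100 kb. Over all 6 arms the density was 1.95 per 100 kb. Ranked regions of any IDR numbered 116 per 100 kb in the Antennapedia complex and 136 in the Bithorax complex, against 107 over all arms.

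Both complexes contained a peak assigned to none of the 40 genes that was stronger than any peak at their Hox genes. In the Antennapedia complex it lay at 3R 6759439-6759778, 143 bp upstream of bcd, the maternal gene that patterns the anterior of the egg, with 168 pooled, 109 in replicate 1 and 76.4 in replicate 2. bcd itself descends from the homeobox genes of the complex but is not among the 40. In the Bithorax complex it lay at 3R 16798824-16798987, between Ubx and abd-A, with 229 pooled, 169 in replicate 1 and 84.0 in replicate 2. The nearest protein-coding start site, that of the sugar transporter gene Glut3, was 10.6 kb away, and that of lncRNA:CR45750 was 1.70 kb away. With a −log10 IDR of 4.14 this peak was more reproducible than any of the 27 peaks assigned to the homeobox genes.

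**Figure D3:**
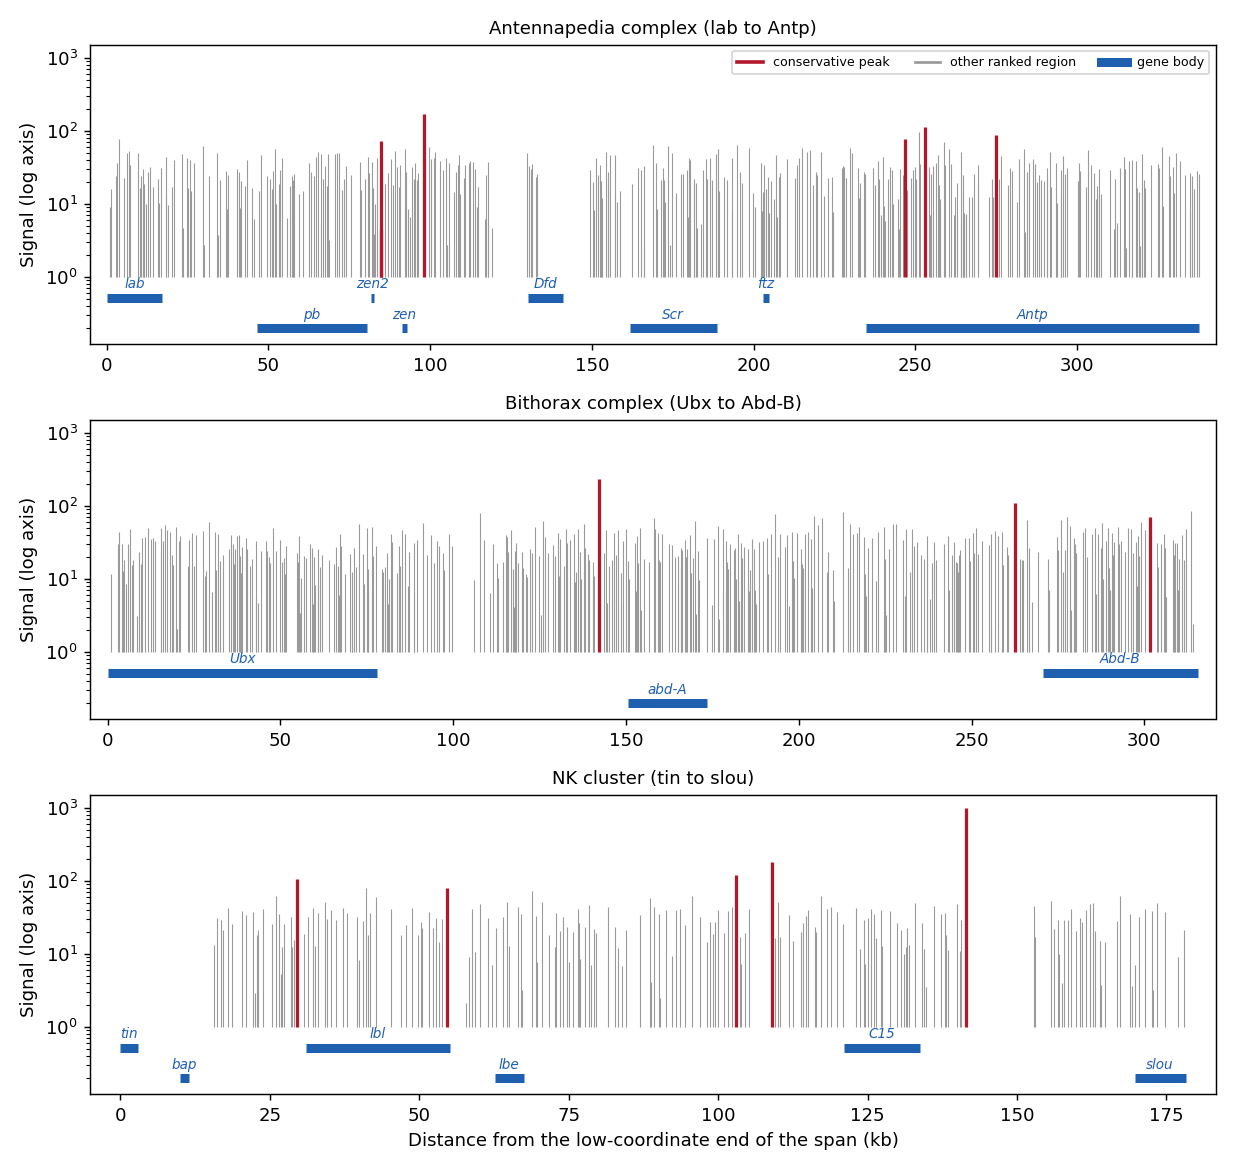
Pooled signal (vertical, log axis, authors' units) of each ranked region along the Antennapedia complex, the Bithorax complex and the NK cluster, by distance in kb from the low-coordinate end. Red lines are conservative peaks, grey lines other ranked regions and blue bars the gene bodies of those of the 40 genes that lie there. The highest red lines are those beside bcd (168), between Ubx and abd-A (229) and at sp3 (978), all outside the blue bars, while gaps without lines around bap and the end of Dfd are stretches with no summit in any file.

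Of the 11 other ANTP-class genes, exex and ro had a peak at a start site. ro, which acts in photoreceptors, had 2 peaks. The peak near its start, at 3R 26881365-26881704, had 99.5 pooled, 53.9 in replicate 1 and 48.8 in replicate 2, and lay 364 bp upstream of ro and 199 bp upstream of T48, a gene of gastrulation that faces it. The other, at 3R 26875676-26876015, had 130 pooled, 86.8 in replicate 1 and 37.9 in replicate 2. It lay 925 bp outside ro and 6 bp upstream of ms(3)K81, a gene that acts in sperm. The peaks of ro thus both had a gene other than ro nearer to the summit.

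exex, a gene of motor neuron identity, had 1 peak in a coding exon at 3L 7948845-7949184, 829 bp downstream of the start site. Its signal was 93.1 pooled, 50.1 in replicate 1 and 31.7 in replicate 2, at a −log10 IDR of 2.23, and neither single-replicate list held it. This window had 42.6% A+T and no TAAT, as printed above.

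cad, which patterns the posterior body and gut, had its conservative peak beyond the 3' end. At 2L 20787278-20787617 it had 160 pooled, 95.1 in replicate 1 and 72.0 in replicate 2, and both single-replicate lists held it. The summit lay 4.31 kb outside cad and 208 bp upstream of Pomp, a proteasome assembly gene. At cad itself a region 174 bp upstream of the start site had 88.8 pooled, 68.9 in replicate 1 and 24.2 in replicate 2. Its −log10 IDR of 1.9 kept it out of the conservative list, while the larger list and that of replicate 1 held a peak there.

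ems, a gene of the head and brain, and its paralog E5 owned peaks only by nearest TSS. The ems peaks lay 13075 and 14030 bp downstream of its start site with pooled signals of 119 and 76.2. The stronger had 62.1 in replicate 1 and 63.6 in replicate 2, one of 3 peaks among the 27 that were higher in replicate 2. The E5 peak lay 5.72 kb upstream with 79.6 pooled, 47.1 in replicate 1 and 29.5 in replicate 2.

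The other 6 genes of this class had no peak by any assignment. inv, the paralog of the segment polarity gene en, had the highest region among them, with 63.1 pooled, 50.5 in replicate 1 and 24.9 in replicate 2, at a −log10 IDR of 1.85. Lower values followed at unpg of the nervous system with 50.6, the pair-rule gene eve with 44.6, en of the posterior compartments with 35.8 and btn of the dorsal median cells with 32.7 pooled. For ind, a gene of the intermediate column of the nerve cord, no ranked region lay in the gene or 1 kb around it.

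The strongest peaks at homeobox genes were those of the NK-type group, at Dll, NK7.1 and tin. Dll, the gene that starts appendages, had the highest pooled signal of all 27, 379, at 2R 24814644-24814819, 93 bp upstream of its start site. The replicates differed widely there, with 333 in replicate 1 and 38.5 in replicate 2. Their ratio of 8.65 was the highest of all 2610 conservative peaks, for which the second highest was 5.69 and the 99th percentile 3.49. The list of replicate 1 held this peak and that of replicate 2 did not. The level at Dll thus rests on replicate 1.

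Further upstream of Dll, a peak 1.06 kb from the start site had 96.8 pooled, 66.0 in replicate 1 and 30.5 in replicate 2. An entry 860 bp upstream had 37.0 pooled and shared its replicate regions with that peak. The Dll promoter summit had 30.7% A+T in its 101 bases, the lowest of the 27, and no TAAT.

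NK7.1, an NK-type homeobox gene, had the most peaks, 6 in its gene body or 5 kb around it. The strongest, at 3R 14373321-14373425 and 400 bp upstream of its start site, had 232 pooled, 142 in replicate 1 and 78.9 in replicate 2. Its −log10 IDR of 3.94 was the highest of the 27 and both single-replicate lists held it. A second start-site peak at 3R 14370558-14370897, in an intron, had 110 pooled, with 56.7 in replicate 1 and 57.0 in replicate 2, and only the list of replicate 2 held it. An intronic peak 15.9 kb downstream had 79.7 pooled, and its nearest protein-coding start site was that of Dnaaf5, 7.86 kb away.

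The other 3 peaks of NK7.1 lay beyond its 3' end at neighbouring genes. Summits with 116 and 11.3 pooled lay in the 5' UTR of ATPsynE, which encodes a subunit of the mitochondrial ATP synthase, and shared their replicate regions. A peak with 110 pooled lay 133 bp upstream of spn-B, a gene of meiotic DNA repair. Of the 6 peaks of NK7.1, 2 had NK7.1 as the nearest protein-coding start site.

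tin, required for the heart and dorsal mesoderm, had 1 peak, at 3R 21378606-21378945 and 201 bp upstream of its start site. It had 169 pooled, 87.0 in replicate 1 and 84.2 in replicate 2, at a −log10 IDR of 3.5, and both single-replicate lists held it. The replicates were thus nearly equal at tin, with a ratio of 1.03 against the median of 1.51 over all peaks. Its window, printed above, had 75.2% A+T and 4 TAAT matches.

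lbl, which with its neighbour lbe specifies muscle and heart cells, had 2 weaker peaks. One in a coding exon 479 bp downstream of the start site, at 3R 21433484-21433823, had 78.5 pooled, 51.2 in replicate 1 and 27.8 in replicate 2, at a −log10 IDR of 2.09. The other, at 3R 21408372-21408711, had 107 pooled and was higher in replicate 2, with 46.5 in replicate 1 and 69.0 in replicate 2. It lay 1.44 kb outside lbl and 581 bp upstream of CheB93b. A region 14016 bp downstream of the lbl start site, with 78.6 pooled, fell just outside the threshold at a −log10 IDR of 1.94.

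The other 14 NK-type genes, bap and scro among them, had no peak by any assignment in the conservative list. The highest region among them was that of H2.0, of the visceral mesoderm, with 67.8 pooled, 56.3 in replicate 1 and 16.04 in replicate 2. B-H2 followed with 64.7 pooled, 39.99 in replicate 1 and 19.1 in replicate 2, and its partner in sensory organs, B-H1, with 62.4 pooled, 31.8 in replicate 1 and 24.1 in replicate 2. HGTX, a gene of motor neurons, had 60.8 pooled, 43.8 in replicate 1 and 26.9 in replicate 2 at 390 bp upstream of its start site, with a −log10 IDR of 1.83.

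The lower pooled values in this group were 57.3 at lms of the lateral muscles, 54.1 at Dr and 51.4 at vnd of the nerve cord columns and 53.7 at scro of the brain. C15 of the leg tip, slou of muscle founder cells and bsh of the optic lobe had 50.1 at C15, 49.2 at slou and 42.2 at bsh. lbe had 51.3 pooled with only 6.003 in replicate 1 and 11.2 in replicate 2, both low for its pooled value. bap, of the visceral mesoderm, lay in a stretch of 10.8 kb with no summit in any file.

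The tagged gene CG11085 had no conservative peak. Its strongest region, 3.58 kb downstream of the start site, had 61.6 pooled, with 25.95 in replicate 1 and 40.4 in replicate 2, at a −log10 IDR of 0.394. The larger list held 2 peaks upstream of it, 2.75 and 4.48 kb from the start site with 95.4 and 80.5 pooled, and the list of replicate 1 held the nearer of these with 71.5. The nearest start site of both was that of Fpgs1.

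**Figure D4:**
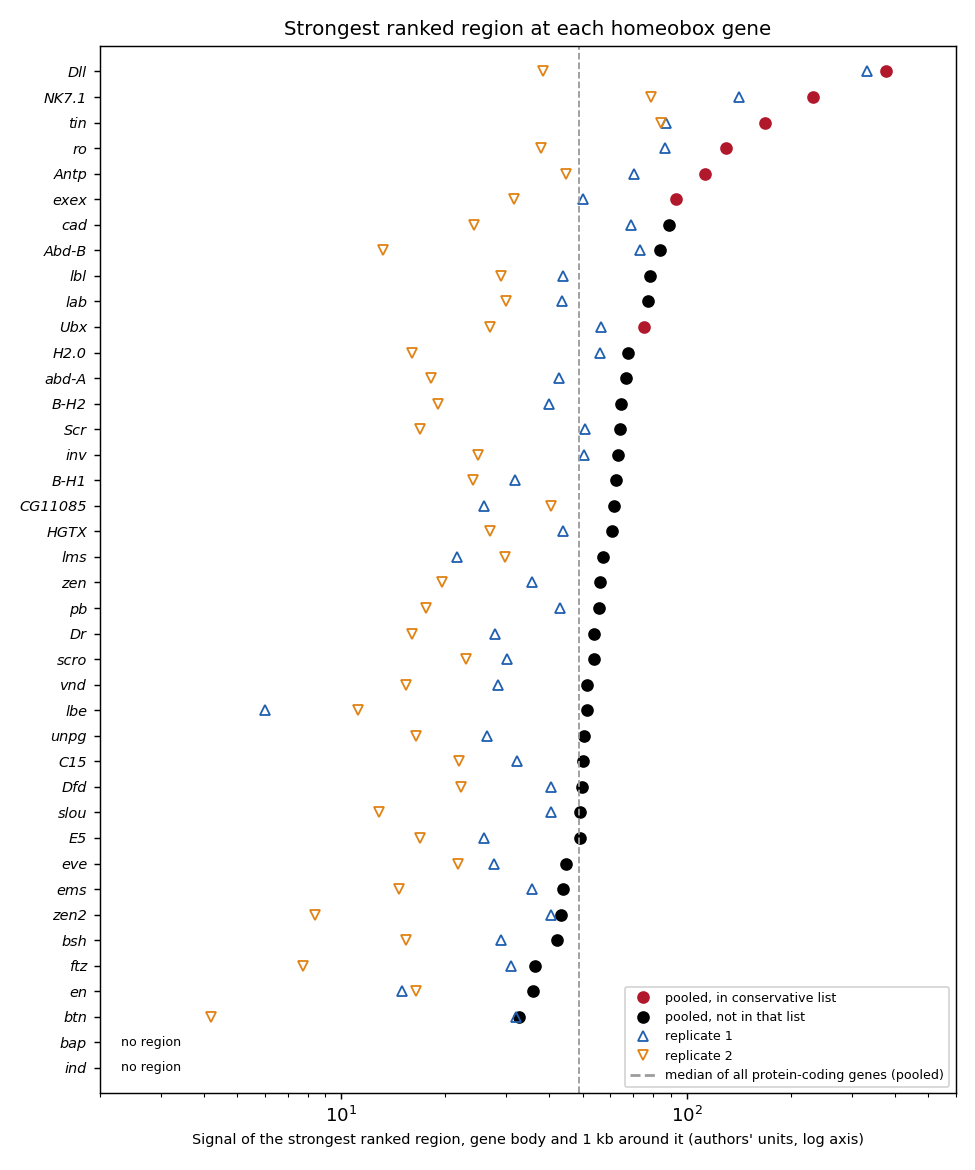
Pooled signal of the strongest ranked region in the body of each homeobox gene and 1 kb around it (filled circles, log axis, authors' units), with its signal in replicate 1 and replicate 2 (triangles). Red circles are in the conservative list and the dashed line is the median of all protein-coding genes, 49.0. In that median, genes with no ranked region counted as having no signal. The values run down from 379 at Dll to 32.7 at btn, and only at Dll, NK7.1, tin, ro, Antp, exex and Ubx was the strongest region itself a conservative peak.

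The strongest region of a gene was higher at the homeobox genes than at other genes over the gene body, and less so at start sites. In the gene body and 1 kb around it, the median of the strongest region over the 40 genes was 56.7, with quartiles of 49.2 and 75.6, against 49.0 with quartiles of 34.7 and 71.9 over all protein-coding genes. At or above that median of all genes lay 31 of the 40, among them all 8 Hox genes. In these body medians and quartiles, genes with no ranked region counted as having no signal. Such genes were 5% of the 40 and 10.2% of all protein-coding genes. The median gene length was 8047 bp for the 40 genes, 30563 bp for the Hox genes and 2166 bp for all protein-coding genes. Ranked regions numbered 1.27 per kb at the 40 genes, 1.31 at the Hox genes and 1.07 at all protein-coding genes. The parts of length and of genes with no ranked region in the body values were not tested. Within 1 kb of the start sites the median was 43.5 over the 40 genes, against 39.6 over all protein-coding genes. Genes with no ranked region there, 10% of the 40 and 14.1% of all protein-coding genes, again counted as having no signal. The median distance between a start site and the nearest conservative summit was 14148 bp for the 40 genes and 12571 bp for all protein-coding genes, and without the genes in empty stretches 14148 bp for 38 genes and 11736 bp for 13198.

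The NK cluster, from tin to slou at 3R 21378977-21557182, spans 178 kb and held 5 conservative peaks, or 2.81 per 100 kb, against 1.95 over all arms. The tin peak lay just outside it, and 2 of the 5 were those of lbl. The strongest, with 978 pooled, 612 in replicate 1 and 368 in replicate 2, lay 567 bp upstream of sp3. Those with 119 and 182 pooled had Fancm, a gene of DNA repair, as the nearest gene. At C15 and slou, within the same cluster, no conservative peak lay in the gene or 5 kb around it.

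The TAAT core was about as frequent at the summits of homeobox genes as beside them, with no test made. Within 50 bp of the summit, TAAT on either strand was found in 15 of the 23 peaks in the gene bodies or 5 kb around them (65.2%), and in 63% of windows of the same length 250 bp to each side. Over all conservative peaks the shares were 74.1% at the summit and 56.3% in the flanks, and 93.3% of promoter windows of 300 bp held it. The palindrome TAATTA, which contains the core, was in 4.35% of the 23 peaks and 10.9% of their flanks, against 8.66% and 5.88% over all peaks. TAATTG, which also contains it, was in 0% of the 23 and 6.52% of their flanks, against 11% and 8.72% over all peaks. With 23 peaks, 1 peak is 4.35%, so these shares are coarse.

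Of the words for other factors, CAAGTG, the NK-2 class word, was in 4.35% of the 23 peaks and 5.02% of all peaks. TTTATG, the word of Abd-B and Cad type sites, was in 21.7% of the 23 peaks and 10.9% of their flanks, against 12.5% and 10% over all peaks. The peaks of the 23 with TTTATG include both entries in the 5' UTR of ATPsynE. Those share their replicate regions and are not separate measurements. TGATNNAT, a Hox and Exd word, was in 0% of the 23 and 6.93% of all peaks. GAGAG of the GAGA factor was in 8.7% of the 23 and 10.1% of all peaks, and GCCAT of Pho in 8.7% of the 23 and 15.6% of all peaks. TATCGAT was in 0% of the 23 and 4.83% of all peaks, and CAGGTAG in 0% of the 23 and 0.307% of all peaks. The median A+T content within 50 bp of the summits was 65.35% at the 23 peaks, 61.4% at the 27 and 66.3% at all peaks. In their flanks it was 54.5% at the 23 and also at the 27, and 57.4% at all.

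Genes that act with or on the homeobox genes were looked at in 9 lists, with a peak within 1 kb of a start site as the measure and the background of 15.1% as above. Of the Polycomb group, 5 of 19 genes had such a peak, the strongest at ph-p with 1343 pooled, 759 in replicate 1 and 610 in replicate 2, followed by E(z), the histone methyltransferase, with 342 pooled. Of the trithorax group, 4 of 14 had one, led by brm, the ATPase of a chromatin remodeller, with 705 pooled, 412 in replicate 1 and 292 in replicate 2, and by Trl, the GAGA factor, with 241 pooled. The peaks at ph-p and brm were stronger than any at the 40 genes, while those at E(z) and Trl were below the Dll peak. Many peaks elsewhere were also stronger, since the Dll peak ranked 165 by signal among the 2610 conservative peaks.

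Among the 6 Hox cofactors and partners, exd and hth included, 0 had a peak at a start site, as had 0 of 5 pair-rule regulators and 0 of 10 limb and eye partners. Of 12 gap and maternal regulators 2 had one, bcd and cnc, and of 11 genes downstream of Hox proteins 1, scyl with 98.4 pooled. Of 14 partners of NK-type genes in muscle and heart 2 had one, Poxm with 123 and Mef2, a regulator of muscle differentiation, with 114 pooled. Of 10 partners in the nerve cord 3 had one, spi, a ligand of the EGF receptor, with 326, dl with 88.6 and Egfr with 78.6 pooled. The spi peak was above all of the 27 except that at Dll, whose level rests on replicate 1. The other peaks named here were below the strongest at NK7.1, with 232 pooled.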

How the data were processed

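ChIP-seq of CG11085-eGFP embryos was deposited as peak files in dm6 coordinates, per the labels. Signal and score are used as the authors deposited them, and the score, a whole number up to 1000, is an IDR score, of which 830 is the lowest in the thresholded lists. The −log10 of the global IDR and the summit offset within each peak are also the authors' deposited values. Of the aligner, caller and read totals, nothing is stated in the sources used here. Replicate signals come from the ranked comparison, whose regions were identical to those of replicate 1 for 93406 and of replicate 2 for 72312 of 142665 regions. Genes and TSSs were those of Ensembl release 115, whose assembly is that of dm6. Assignments and words were counted with Python 3.11.15 and NumPy 2.4.6, figures were drawn with matplotlib 3.10.9, and the counting was tested on simulated data.

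All members were named, with the gene whose protein-coding start site was nearest to each of their peaks. Also named were up to 4 genes per list with the strongest start-site peak, and values were given for the 5 strongest other members without a peak. Peaks in the complexes that were assigned to none of the members were chosen after their values were seen. The homeodomain comparison planned for the rule was not made. The members and lists were chosen with earlier results of these data known. Listed symbols calypso, h and con were not matched and not used here. Replicate numbers came from the labels, and no test was made, since both samples form 1 group.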

Additional observations from a re-analysis of the deposited data

How the results depend on the processing

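Of the 9 summary results, 34 alternative values stayed within 1.5 times the count or within the replicate spread and 17 did not. At a global IDR of 0.001 or below, the genes with a peak numbered 3 at start sites, 4 in the gene body or 5 kb around it and 3 by nearest TSS, where the backgrounds fell to 8.53%, 20.8% and 7.48% of all protein-coding genes. That threshold left 4 peaks at the genes, of which 3 held TAAT (75%), and 2 in the Hox complexes. With 1 replicate left out, the genes numbered 2 to 5 at start sites, 5 to 8 in the gene body or 5 kb around it and 4 to 7 by nearest TSS, the lower value each time without replicate 1. Peaks then numbered 9 to 13 at the genes, 5 to 6 in the Hox complexes and 5 to 7 with TAAT. The median strongest region was 41.0 by replicate 1 signal alone and 23.7 by replicate 2 signal alone. The main value of 56.7 is a pooled signal, so the lower medians come from a different measure and are not read as a fall. Both single-replicate medians are among the 17 values, and no matching median over all protein-coding genes is given. A window of 10 kb around the gene body raised the genes with a peak to 19 (47.5%), against 48.5% of all protein-coding genes. Leaving out genes whose start sites lay in stretches without a summit, chosen after seeing the data, changed none of the 3 gene counts. No paired analysis was possible because both samples form 1 group and no test was made. Without read totals and an untagged library, a weak region cannot be told from background.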

Other observations

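With the window around the gene body widened to 10 kb, abd-A, zen, E5, C15, bsh, lbe and CG11085 joined the 12 genes that have a conservative peak in the gene body or 5 kb around it. The 19 genes are 47.5% of the 40, against 48.5% of all protein-coding genes with a peak in that window.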
